A study of Rattus norvegicus with 20 samples.

Results

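The vesicle coat, Sec and Rab trafficking genes are 123 genes of the rat genome array whose symbols name the coatomer (COPI) subunits Copa, Copb1, Copb2, Cope, Copg1, Copg2, Copz1, Copz2 and Arcn1, a numbered Sec, Rab or Arf protein, or a subunit of the adaptor complexes AP-1, AP-2 or AP-3. They were taken by symbol from the 14217 genes that have a probe set with a single annotated symbol. They have 199 such probe sets of 31042 tested, and where a gene had several, the brightest on average across the 20 arrays was used. By role they comprise 9 COPI genes, 11 COPII and endoplasmic reticulum (ER) exit genes, 8 translocon and signal peptidase genes, 3 Sec14-like genes, 6 Arf GTPases, 8 AP-1, 4 AP-2 and 7 AP-3 subunits, 56 Rab GTPases, 10 Rab effectors or regulators and Ap1ar, an AP-1 accessory protein.

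Each array measured RNA from the nasal epithelium of 1 untreated adult rat of the outbred Sprague Dawley stock. Olfactory epithelium lines the back of the nasal cavity and holds the sensory neurons of smell, and respiratory epithelium lines the passages in front of it. There were 12 arrays from males, 6 of each tissue, and 8 from females, 2 of olfactory and 6 of respiratory epithelium, from animals of 11, 13 or 14 weeks (11 to 14 weeks in each group but the female olfactory one, with 1 animal of 13 and 1 of 14 weeks). The labels name the individual of each sample, which gives 13 rats, 7 of them with both tissues. The epithelium was gathered by hand from the septum and turbinates, so every sample is a mixture of cell types, and fewer cells of a type and less RNA per cell cannot be told apart in any value below.

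Proteins bound for the cell surface, secretion or the endosomes enter the ER through the Sec61 translocon, leave it in COPII vesicles, and are returned from the Golgi in COPI vesicles. Arf GTPases recruit COPI and the AP adaptors to membranes, and Rab GTPases then direct vesicles to their target and hold them there for fusion. In the nose this machinery serves mucus and gland secretion in the respiratory lining, and in olfactory neurons the delivery of receptors to cilia and the release of transmitter from axon ends.

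The tissue labels were checked on cell type markers. Of 9 measured markers of olfactory sensory neurons, 8 were called higher in male olfactory epithelium, and their summed signal was 66567 to 76976 there and 3101 to 12611 in male respiratory arrays (in females, 78423 to 79407 against 4279 to 26112), so respiratory samples also held neuron transcripts. Of 8 sustentacular cell markers 5 were higher and 2 lower (summed 93770 to 125432 against 30877 to 69210 in males). Lower in male olfactory epithelium were 5 of 7 nasal gland markers with 1 higher (summed 12946 to 72040 against 102695 to 186718), 6 of 11 goblet cell markers (32708 to 56763 against 63980 to 95236), 7 of 8 basal and squamous cell markers (3765 to 12792 against 25084 to 74434) and 9 of 13 leukocyte markers with 2 higher (4677 to 8614 against 17909 to 36114). Of the other lists, 4 of 6 ensheathing glia markers were higher and 1 lower (7848 to 21910 against 2739 to 5536), 5 of 9 bone and connective tissue markers lower (15783 to 27790 against 30659 to 57091), and 3 of 6 endothelial markers lower with 1 higher (1698 to 4703 against 1654 to 2477). Of 5 ciliated cell markers 1 was lower and 0 higher (4143 to 6130 against 4296 to 8173). Of 4 erythrocyte markers 2 were lower and 0 higher, and 0 of 6 muscle markers were called. The part of any of these cell types in the differences below was not tested. RNA integrity numbers were lower in olfactory RNA, at 8.54 ± 0.26 in males (SD, n = 5) against 9.20 ± 0.08 (SD, n = 4). Male respiratory 7 and female respiratory 8 stood apart from their groups. They were the highest or the lowest of their 6 arrays for 91 and 94 of the 123 genes, against 12 to 79 for the other 16 arrays of groups of 6, and they did the same for 67.9% and 66.1% of all genes.

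In males, 15 of the 123 genes were called higher and 26 lower in olfactory than in respiratory epithelium (limma, adjusted p under 0.05). Across all 14217 genes 14.0% were called higher and 17.8% lower, so the trafficking genes were called about as often as genes in general. Their median log2 difference was -0.04, against -0.05 over all genes. Of the 123, 21 were called with a difference of at least 2-fold, as were 2790 of all 14217 genes. The 6 olfactory values all lay above the 6 respiratory values for 11 genes and all below for 14, where 7.54% and 10.2% of all genes did so. By role, 33.3% of the COPI, 27.3% of the COPII, 12.5% of the translocon and 33.3% of the Arf genes were called, against 31.8% of all genes. These calls, 9 in all, were lower in olfactory epithelium, and only those of Sec13 and Sec16b held with RNA integrity as a covariate. Arf3 missed narrowly (limma, adjusted p = 0.0526). It was called higher without male respiratory 7 and female respiratory 8, and also with quantile normalization, a background filter or age as a factor. Sec22c was called higher in males of 11 weeks alone. Rab GTPases were called 8 times higher and 14 times lower, and Rab effectors 2 times higher. AP-1 subunits were called 3 times higher and 2 times lower, and AP-2 subunits not at all. The difference in direction between roles was not tested.

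**Figure D1:**
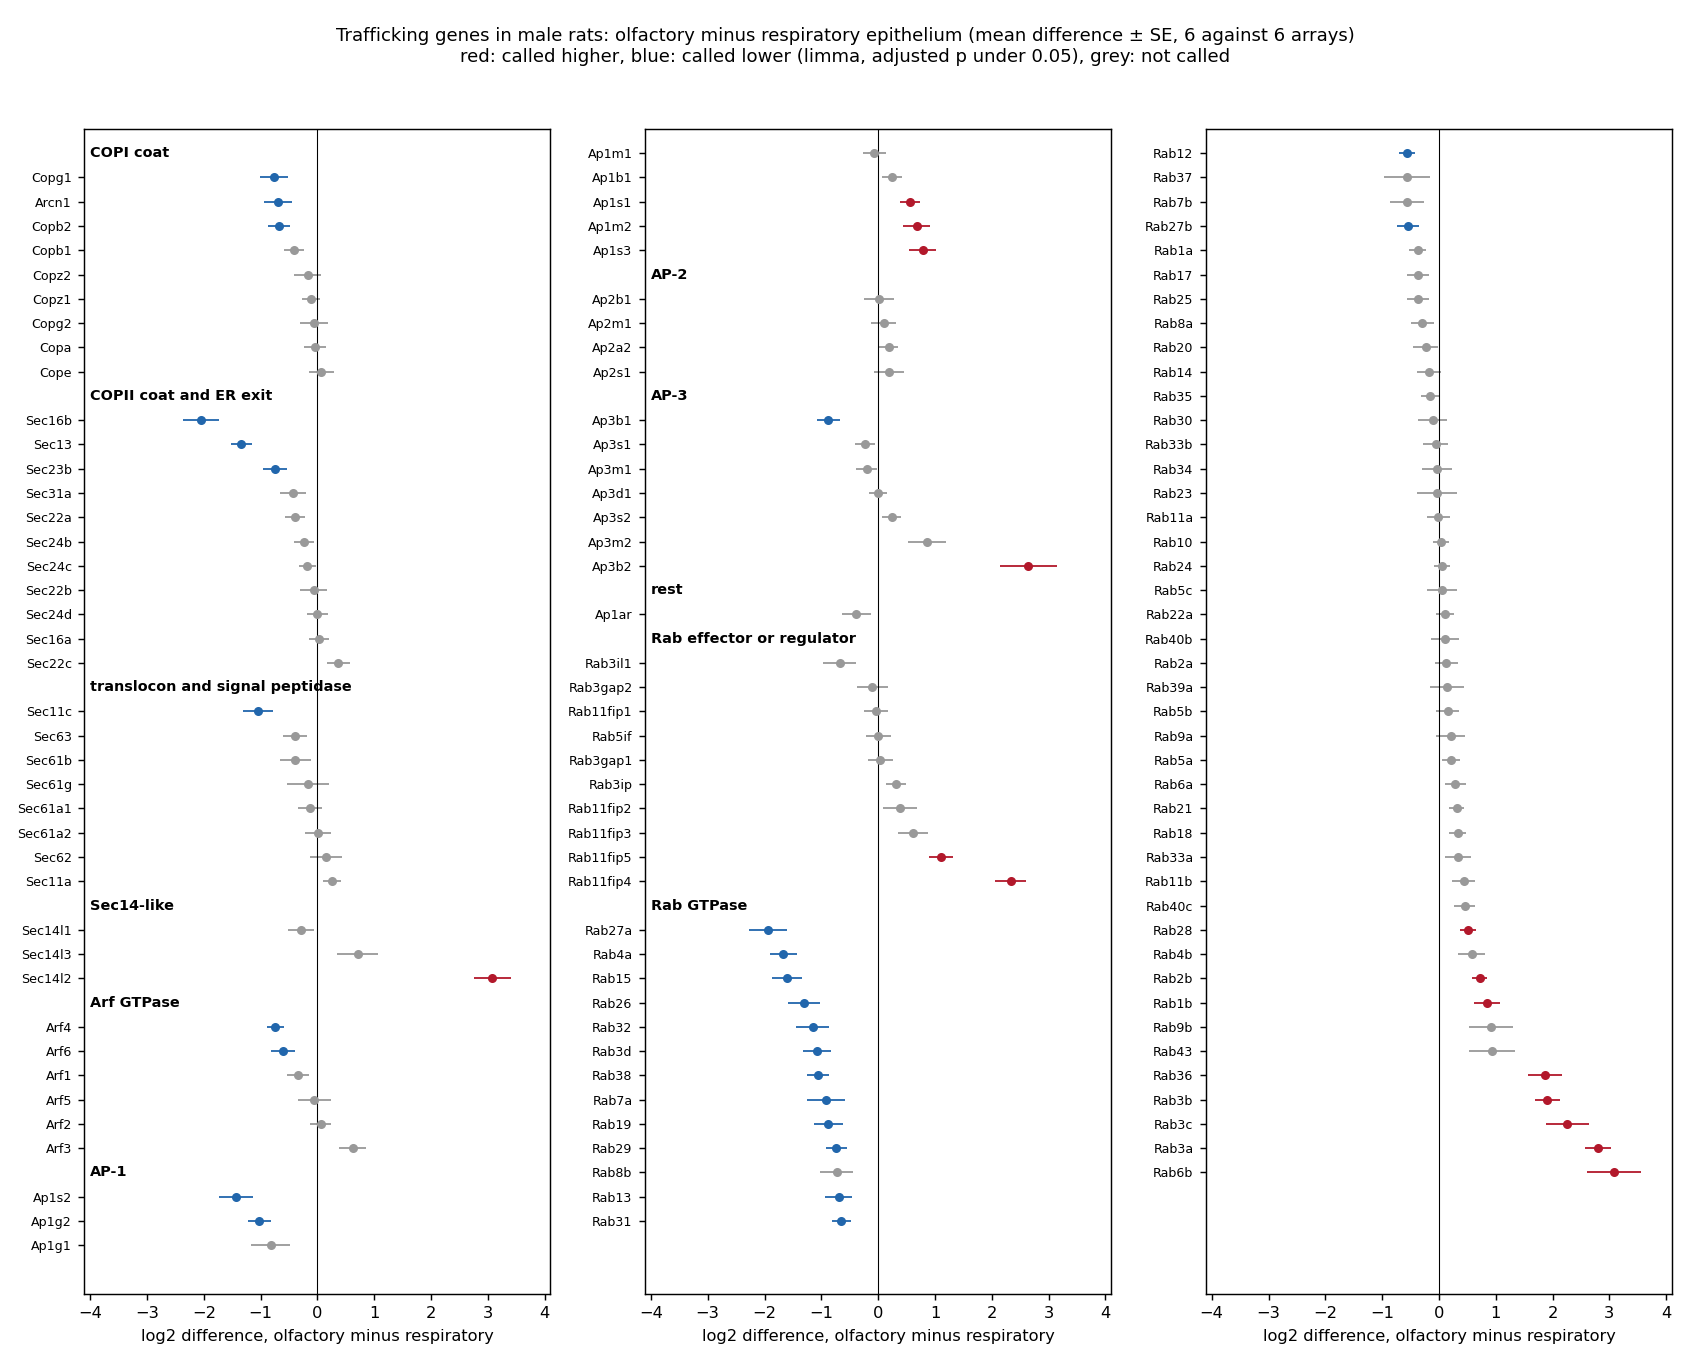
Log2 difference (olfactory minus respiratory, mean ± SE) in males for each of the 123 genes, grouped by role, with called genes in red (15 higher) and blue (26 lower) and the others in grey. The 5 points farthest to the right are Sec14l2, Rab6b, Rab3a, Ap3b2 and Rab11fip4, and Sec16b (-2.05) lies farthest to the left.

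Of the 9 COPI genes, 3 were called lower in male olfactory epithelium and 0 higher. Copb2, the beta-prime subunit of the coat, had signals of 1558, 2807 and 2924 (lowest, median and highest of 6) in male olfactory and 2965, 3972 and 4622 in male respiratory epithelium. The groups did not overlap, and the log2 difference was -0.68 ± 0.19 (SE, adjusted p = 0.0109). Copg1, a gamma subunit, ran from 619 to 2154 around a median of 1562 in olfactory and from 2028 to 2576 around 2119 in respiratory arrays, with a difference of -0.77 ± 0.25 (adjusted p = 0.0234). Its paralog Copg2 did not pass, at -0.06 ± 0.24 (adjusted p = 0.897). Arcn1, the delta subunit, ran from 794 to 2139 around 1618 in olfactory and from 1440 to 2792 around 2615 in respiratory arrays, a difference of -0.69 ± 0.25 (adjusted p = 0.0418). The values of Copg1 and Arcn1 overlap between the tissues. For Copg1, arrays 10 (619) and 4 (899) are the lowest of the male olfactory group. For Arcn1, male olfactory 10, 4 and 7 (794, 1107 and 1289) and male respiratory 7 (1440) lie low. Dimmer second probe sets were not called, at -0.252 ± 0.235 for Copg1 (adjusted p = 0.492) and -0.897 ± 0.405 for Arcn1 (adjusted p = 0.114). Averaging all probe sets of a gene removed both calls (adjusted p = 0.102 for Copg1 and 0.0668 for Arcn1).

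The remaining COPI genes gave log2 differences of -0.41 ± 0.18 for Copb1 (adjusted p = 0.0993), -0.17 ± 0.23 for Copz2 (adjusted p = 0.651), -0.12 ± 0.16 for Copz1 (adjusted p = 0.642), -0.04 ± 0.20 for Copa (adjusted p = 0.918) and 0.07 ± 0.22 for Cope (adjusted p = 0.868). Copb1, the beta subunit, passed once male respiratory 7 and female respiratory 8 were left out (-0.51 ± 0.16, adjusted p = 0.018). Male respiratory 7, at 2052, was below the other male respiratory arrays at 2816 to 3701. Male respiratory 7 was low for some subunits (Copg2 at 767 against 1951 to 2229) and high for others (Cope at 5761 against 2547 to 3071), so it did not shift the coat in 1 direction. With RNA integrity as a covariate the 3 COPI calls were lost, with differences of -0.66 ± 0.36 for Copb2 (adjusted p = 0.329), -0.45 ± 0.47 for Copg1 (adjusted p = 0.66) and -0.01 ± 0.37 for Arcn1 (adjusted p = 0.995).

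**Figure D2:**
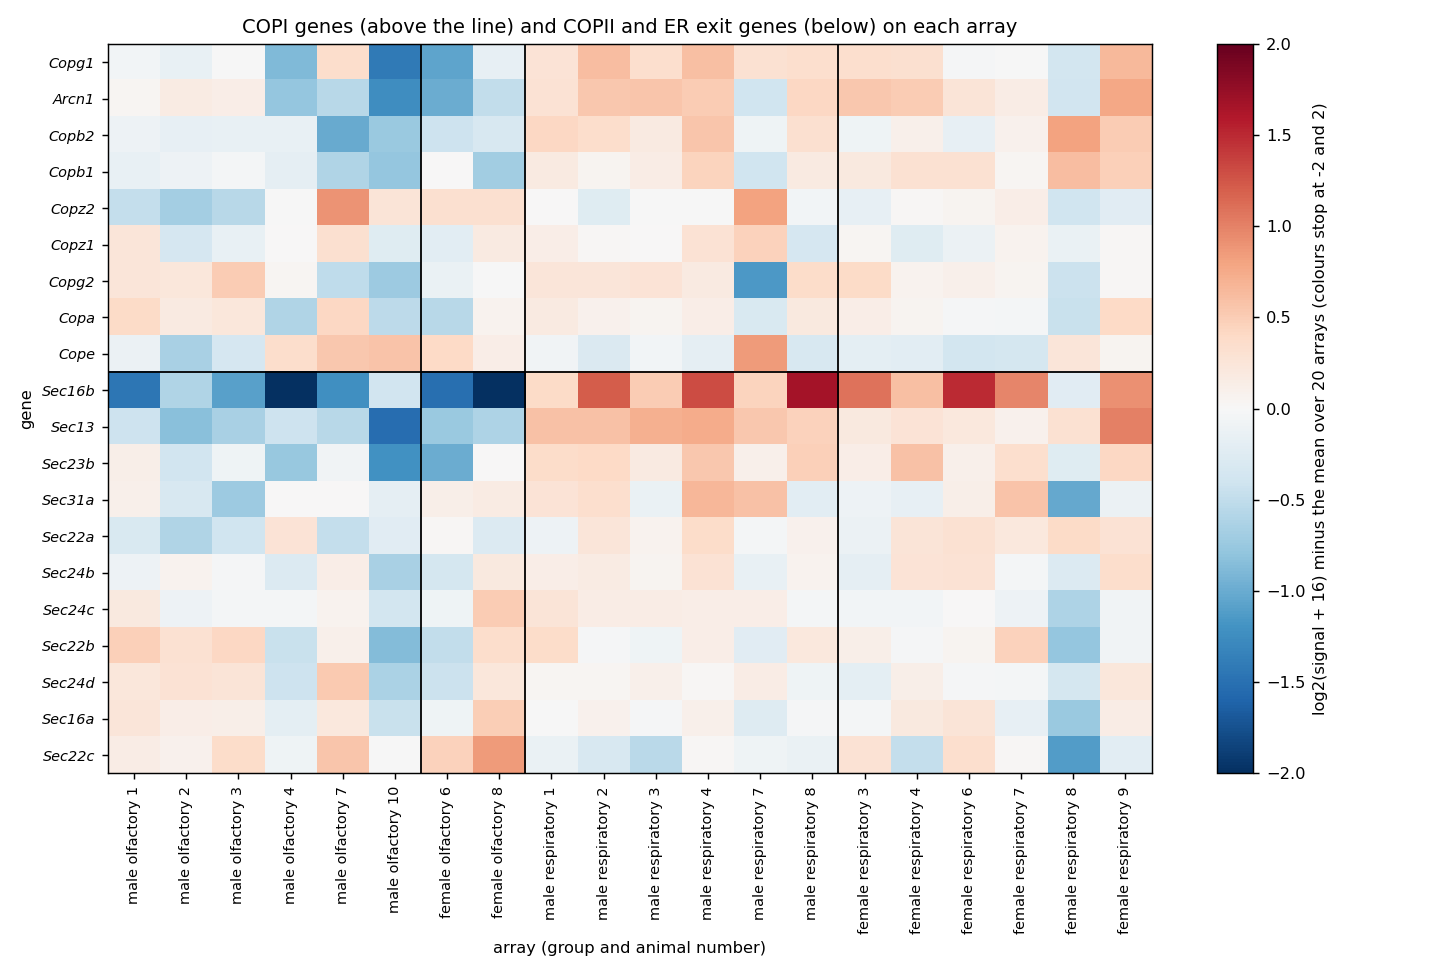
Each row is a COPI gene (above the line) or a COPII and ER exit gene (below), each column an array, and the colour is log2(signal + 16) minus the gene's mean over the 20 arrays. Sec16b and Sec13 are blue in every olfactory array and, apart from Sec16b on female respiratory 8, red in the respiratory arrays, whereas Copa and Sec24d differ little between the male groups (-0.04 and 0.00).

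Among the 11 COPII and ER exit genes, 3 were called lower and 0 higher. Sec13, an outer cage subunit of COPII that also belongs to the nuclear pore, had signals of 877, 1681 and 1914 in male olfactory and 3517, 3839 and 4286 in male respiratory epithelium. The highest olfactory array was below the lowest respiratory one, and the difference was -1.34 ± 0.18 (2.53-fold, adjusted p = 7.57e-06). Sec16b, a scaffold of ER exit sites, gave 21.7, 54.4 and 104 in olfactory and 187, 275 and 482 in respiratory arrays, again without overlap (-2.05 ± 0.32, 4.14-fold, adjusted p = 3.85e-05). On 1 male olfactory array Sec16b was not above background. Its paralog Sec16a differed by 0.03 ± 0.18 (adjusted p = 0.929).

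Sec23b, the inner coat protein that activates the GTPase of Sar1, ran from 1639 to 4132 around 3266 in olfactory and from 4114 to 5546 around 4989 in respiratory arrays, a narrow overlap (-0.75 ± 0.22, adjusted p = 0.0124). The other 8 genes lay between -0.44 ± 0.23 for Sec31a (adjusted p = 0.179), the partner of Sec13 in the outer cage, and 0.37 ± 0.21 for Sec22c (adjusted p = 0.216), and the cargo-binding subunits Sec24b, Sec24c and Sec24d gave -0.24, -0.18 and 0.00. Sec13 and Sec16b kept their calls with RNA integrity as a covariate (-1.35 ± 0.35, adjusted p = 0.0247, and -1.83 ± 0.55, adjusted p = 0.0489), and Sec23b lost its call (adjusted p = 0.472).

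Among 29 other ER exit genes and cargo receptors, 9 were called lower and 2 higher in male olfactory epithelium (37.9% called, against 31.8% of all genes). The 3 with the largest difference were Tmed3, a p24 cargo receptor (-1.73 ± 0.23, adjusted p = 5.2e-06), Kdelr3, a receptor that returns ER residents (-1.57 ± 0.19, adjusted p = 1.34e-06), and Lman1, the glycoprotein receptor ERGIC-53 (-1.26 ± 0.24, adjusted p = 0.00028). Of 24 ER chaperones and unfolded protein response genes, 11 were lower and 1 higher. The single gene higher was Ddit3, the stress factor CHOP, at 1023 to 4869 in olfactory against 387 to 1044 in respiratory arrays (1.84 ± 0.32, adjusted p = 0.000145). Xbp1, the transcription factor that drives secretory capacity, was lower (3492 to 8671 against 9318 to 13950, -0.99 ± 0.23, adjusted p = 0.00266), as was Eif2ak3, the stress sensor kinase PERK (-1.01 ± 0.28, adjusted p = 0.0102).

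Of 8 translocon and signal peptidase genes 1 was called, and it was lower. Sec11c, a catalytic subunit of signal peptidase, ran from 1967 to 6847 around a median of 2464 in olfactory and from 4947 to 8741 around 5645 in male respiratory arrays (-1.05 ± 0.26, adjusted p = 0.00397). The other catalytic subunit, Sec11a, differed by 0.26 ± 0.16 (adjusted p = 0.267). The channel subunits gave -0.13 ± 0.21 for Sec61a1 (adjusted p = 0.732), 0.01 for Sec61a2, -0.39 ± 0.28 for Sec61b (adjusted p = 0.343) and -0.16 ± 0.37 for Sec61g (adjusted p = 0.81), and Sec62 gave 0.15 ± 0.28 (adjusted p = 0.764). Sec63, the DnaJ partner of the channel, gave -0.40 ± 0.21 (adjusted p = 0.189). Without male respiratory 7 and female respiratory 8 it was called lower (-0.62 ± 0.15, adjusted p = 0.0028). Male respiratory 7 read 857 for Sec63 against 1853 to 2558 on the other male respiratory arrays, and both arrays were far above their groups for Sec61b and Sec61g. Among 24 translocon partners 6 were lower and 0 higher (25.0% called, against 31.8% of all genes). They were led by Tram1, a translocon-associated protein (-1.14 ± 0.17), Srpra, the signal recognition particle receptor (-1.03 ± 0.17), and Rpn2, a subunit of the oligosaccharyl transferase (-0.92 ± 0.22, adjusted p from 1.98e-05 to 0.00283).

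Of the 6 Arf GTPases, Arf4 and Arf6 were called lower. Arf4, a Golgi Arf, had signals of 4207, 5611 and 6362 in male olfactory and 8425, 8750 and 10814 in male respiratory arrays, without overlap (-0.74 ± 0.15, adjusted p = 0.000676). Arf6, which acts at the plasma membrane and in endosome recycling, ran from 1083 to 2727 around 1695 in olfactory and from 1971 to 3974 around 2356 in respiratory arrays (-0.60 ± 0.21, adjusted p = 0.0361). It lost its call without male respiratory 7 and female respiratory 8 (-0.47 ± 0.19, adjusted p = 0.0705). Arf3 lay the other way at 0.62 ± 0.23 and did not pass (adjusted p = 0.0526). Male respiratory 7 read 5561 for Arf3 against 2681 to 2902 on the other 5 respiratory arrays. Without the 2 arrays that stood apart Arf3 was called higher (0.78 ± 0.21, adjusted p = 0.00565). Quantile normalization also gave a call (0.60 ± 0.18, adjusted p = 0.0171), as did the background filter and age as a factor. With RNA integrity as a covariate Arf3 was not called (0.25 ± 0.36, adjusted p = 0.771). Arf1, Arf2 and Arf5 gave -0.34, 0.06 and -0.05 (adjusted p = 0.238, 0.867 and 0.924). Among 19 Arf exchange factors and GTPase-activating proteins 4 were lower and 2 higher (31.6% called, against 31.8% of all genes). The exchange factor Arfgef2 (-0.89 ± 0.29, adjusted p = 0.027) and the COPI-linked Arfgap3 (-0.86 ± 0.26, adjusted p = 0.0149) were among the lower ones, and Git2 gave -0.88 ± 0.37 (adjusted p = 0.0843).

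The promoters of the members were searched for short motifs. The RefSeq promoter window (250 bases before to 50 after the start, GRCr8 build) was available for 104 of the 123 genes and was searched on both strands for 3 motifs. These were the unfolded protein response element TGACGTGG, bound by XBP1 and ATF6, the cyclic AMP response element TGACGTCA, and an E-box of the lysosomal CLEAR type, TCACGTGA. The first and second motifs share their first 6 bases. TGACGTGG was found in 6 of 104 members (5.77%). It was found in 0.681% of 27457 genes with a window, or 0.895% of the 11733 of them with a probe set. Of the 6, 5 are among the 30 COPI, COPII, translocon and Arf genes (16.7%) and 1 among the 52 Rab genes. The share over these joined roles was not planned beforehand. The 5 genes are Copb1, Copb2, Copa, Arf1 and Arf4, with no COPII or translocon gene among them, and the Rab gene is Rab21. TGACGTCA was found in 4 of 104 members (3.85%, against 2.0% of all genes and 2.93% of those with a probe set), and TCACGTGA in 1 (0.962%, against 0.896% and 1.49%). The shares were not tested, and a match is a run of letters, not a known binding site. The 4 matches that begin before the start are shown. Those of both beta-type COPI subunits and Arf4 lie at a like distance from the start, and that of Arf1 lies farther from it. Each sequence is given 5′ to 3′ on the strand of its gene, with the match in capitals (CCACGTCA is TGACGTGG read on the other strand).
Copb1, chr1:177872839-177872886, minus strand: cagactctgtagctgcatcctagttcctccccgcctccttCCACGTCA
Copb2, chr8:108040637-108040686, plus strand: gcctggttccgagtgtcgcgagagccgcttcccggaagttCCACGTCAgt
Arf4, chr16:1903387-1903435, plus strand: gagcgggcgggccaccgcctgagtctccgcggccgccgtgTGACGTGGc
Arf1, chr10:44513995-44514064, minus strand: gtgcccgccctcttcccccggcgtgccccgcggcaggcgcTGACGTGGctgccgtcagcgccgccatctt

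The matches begin at -6 in Copb1, -10 in Copb2, -9 in Arf4 and -30 in Arf1, counted from the annotated start, and those of Copa and Rab21 lie after it at 31 and 30. In males Copb2 and Arf4 were called lower, Copb1 and Arf1 gave -0.41 and -0.34 without passing, Copa gave -0.04 ± 0.20, and Rab21 gave 0.31 ± 0.13 (adjusted p = 0.0757). Of the members called in males, 2 of 24 lower and 0 of 11 higher genes with a window held TGACGTGG.

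The adaptor complexes sort cargo into clathrin-coated and related vesicles at the Golgi and on endosomes. In AP-1, 3 subunits were called higher and 2 lower, and the sigma subunits, which are interchangeable parts of the complex, went in opposite directions. Ap1s2 had signals of 204, 233 and 504 in male olfactory and 465.7, 770 and 1007 in male respiratory arrays (-1.43 ± 0.30, adjusted p = 0.000955), with the olfactory array of male 2 (504) alone reaching the respiratory range. Ap1s3 gave 805, 1045 and 1879 in olfactory against 597, 654 and 716 in respiratory arrays, without overlap (0.78 ± 0.24, adjusted p = 0.0173). Ap1s1 ran from 1971 to 3343 around 2389 against 1309 to 2447 around 1583 (0.56 ± 0.18, adjusted p = 0.0234). Other probe sets of Ap1s2 were not called: 1 nearly as bright gave -0.748 ± 0.276 and a dim one -0.029 ± 0.337. Averaging all probe sets lowered the Ap1s2 difference to -0.735 (adjusted p = 0.0372). The second Ap1s1 probe set gave 0.389 ± 0.184 (adjusted p = 0.134).

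The mu subunits bind sorting signals in the tails of cargo proteins. Ap1m2, the epithelial form that sorts to the basolateral membrane, was called higher (1629 to 3783 around 2872 against 1223 to 3219 around 1430, 0.68 ± 0.24, adjusted p = 0.039), with male respiratory 7 at 3219 apart from the other 5 at 1223 to 1713, while Ap1m1 gave -0.07 ± 0.20 (adjusted p = 0.851). Of the gamma subunits, Ap1g2 was called lower, at 222 to 269 in olfactory against 439 to 556 in respiratory arrays (-1.02 ± 0.21, adjusted p = 0.000593), and Ap1g1 gave -0.82 ± 0.34 (adjusted p = 0.0794). Ap1g2 had the smallest spread of the 123 genes within male olfactory epithelium (SD 0.11 on the log2 scale, n = 6). The 4 measured AP-2 genes, whose complex works in endocytosis at the plasma membrane, lay between 0.02 for Ap2b1 and 0.19 ± 0.27 for Ap2s1 (adjusted p from 0.479 to 0.973).

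In AP-3, which sends cargo to lysosomes and related organelles, the beta subunits went in opposite directions. Ap3b2, the neuronal form, had signals of 463, 798 and 1106 in male olfactory and 47.6, 92.2 and 336 in male respiratory arrays, without overlap (2.64 ± 0.50, 6.23-fold, adjusted p = 0.000329). Ap3b1, the form of most tissues, had 326, 499 and 611 against 531, 916 and 1042 (-0.88 ± 0.20, adjusted p = 0.00237). Male respiratory 7 had the lowest of the respiratory values of Ap3b1 (531 against 888 to 1042). Ap3m2, the neuronal mu subunit, gave 0.86 ± 0.33 and did not pass (adjusted p = 0.0605), and Ap3m1, Ap3s1, Ap3s2 and Ap3d1 gave -0.20, -0.23, 0.24 and 0.00 (adjusted p from 0.339 to 0.991). For Ap3s1 a dimmer probe set was called higher (0.98 ± 0.22, adjusted p = 0.00163), so its probe sets disagree.

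Among 28 other clathrin and endocytic genes 7 were higher and 4 lower (39.3% called, against 31.8% of all genes). The 3 with the largest difference are known for synaptic vesicle recycling: Snap91, the neuronal clathrin assembly protein AP180 (2.22 ± 0.34), Sh3gl3, an endophilin (2.20 ± 0.26), and Dnm1, the neuronal dynamin that pinches vesicles off (1220 to 1915 in male olfactory against 269 to 442 in respiratory arrays, 2.14 ± 0.28). Their adjusted p values ran from 1.13e-06 to 2.61e-05. Of 30 ER and Golgi SNAREs and tethers 9 were higher and 3 lower, with Napb, the neuronal form of the SNARE-disassembly factor SNAP (1.76 ± 0.47, adjusted p = 0.00751), and Trappc4, a tether subunit (1.07 ± 0.19, adjusted p = 0.000146), above and Stx17, a SNARE of autophagosomes (-1.04 ± 0.33, adjusted p = 0.0214), below.

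The Rab3 family holds the Rabs of regulated exocytosis, and of its 4 members Rab3a, Rab3b and Rab3c were called higher and Rab3d lower. Rab3a, the Rab of synaptic vesicles, had signals of 2184, 3212 and 4090 in male olfactory and 285, 395 and 669 in male respiratory epithelium. It had the smallest adjusted p of the 123 genes (2.79 ± 0.23, 6.93-fold, adjusted p = 9.29e-09). Rab3b gave 698, 1040 and 1497 against 203, 239 and 386 (1.91 ± 0.22, 3.74-fold, adjusted p = 6.21e-07). Rab3c gave 97.4, 131 and 222 against 2.93, 15.7 and 46.9 (2.26 ± 0.38, adjusted p = 7.46e-05), and it was above background on 6 of 6 olfactory but 1 of 6 respiratory arrays. Rab3d, the form known from zymogen and mucus granules of exocrine cells, went the other way with 737, 1101 and 1647 against 1758, 2178 and 3943 (-1.08 ± 0.25, adjusted p = 0.00255). In all 4 genes the male groups did not overlap. With RNA integrity as a covariate Rab3a and Rab3b remained called (2.31 ± 0.31 and 1.47 ± 0.35), and Rab3c (1.17 ± 0.61, adjusted p = 0.295) and Rab3d (-1.05 ± 0.46, adjusted p = 0.195) did not.

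**Figure D3:**
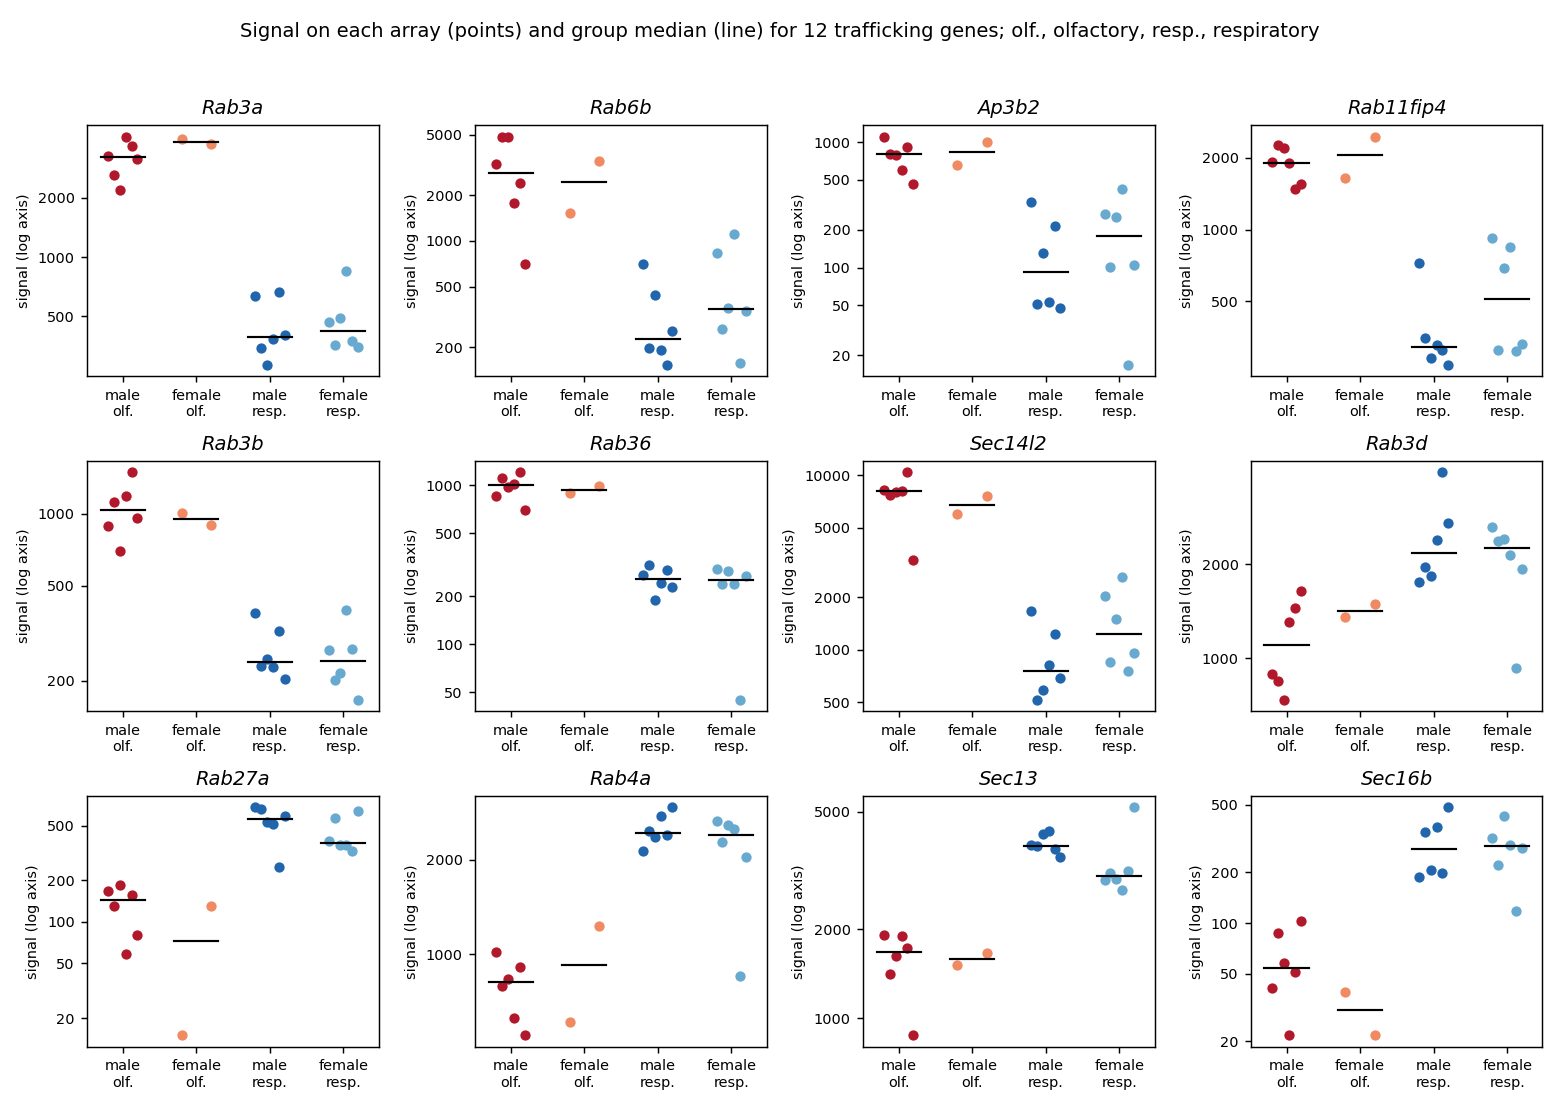
Signal on each array (points, log axis) and group median (line) for 12 trafficking genes in the 4 groups. Rab3a lies at 2184 to 4090 on all 8 olfactory arrays and at 285 to 848 on all 12 respiratory arrays, Rab6b overlaps because of 1 olfactory array at 704, and in the Rab36 and Rab4a panels female respiratory 8 (44.6 and 851) lies far below its group.

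Rab27a, Rab27b and Rab26 were called lower. Rab27a, which ties secretory granules to the cortex before release, had signals of 58.9, 144 and 186 in male olfactory and 248, 557 and 677 in male respiratory arrays, without overlap (-1.94 ± 0.33, 3.83-fold, adjusted p = 0.000116). On 1 of the 6 olfactory arrays it was not above background. Rab27b differed less on its brightest probe set (185 to 271 around 213 against 224 to 417 around 343, -0.55 ± 0.20, adjusted p = 0.043). A dimmer Rab27b probe set gave -1.33 ± 0.33 (adjusted p = 0.00371). Averaging all probe sets of Rab27b gave -0.94 (adjusted p = 0.00111). Rab26, a Rab of maturing exocrine granules, gave 72.6, 146 and 285 against 240, 408 and 589 (-1.30 ± 0.28, adjusted p = 0.0011), and its relative Rab37 gave -0.56 with a wide error (adjusted p = 0.352). Among 26 Rab regulators and effectors with other names, 6 were lower and 1 higher (26.9% called, against 31.8% of all genes). Exph5, a Rab27 effector, was lower (106 to 205 against 391 to 1350, -2.30 ± 0.26, adjusted p = 6.21e-07), as were Myo5c, a myosin motor of secretory granules (168 to 492 against 397 to 2910, -2.34 ± 0.36, adjusted p = 3.41e-05), and Sytl4, the granuphilin that binds Rab27 (-1.90 ± 0.33, adjusted p = 0.000134, above background on 1 of 6 olfactory arrays).

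The Golgi Rab6 isoforms differed in how they varied by tissue. Rab6b, the form enriched in neurons, had signals of 704, 2808 and 4862 in male olfactory and 153, 226 and 705 in male respiratory arrays (3.07 ± 0.47, 8.42-fold, adjusted p = 3.1e-05). A dimmer Rab6b probe set gave a smaller difference (1.84 ± 0.30, adjusted p = 6.14e-05), and averaging all its probe sets gave 2.46. Rab6a, the widespread form, differed by 0.29 and did not pass (adjusted p = 0.275). Rab6b had the largest spread of the 123 genes within male olfactory epithelium (SD 1.04 on the log2 scale, n = 6). Its lowest olfactory array, male 10 at 704, met its highest respiratory array, male 1 at 705, and male olfactory 10 was the highest or lowest of its group for 79 of the 123 genes. Rab36, another Golgi-associated Rab, gave 695, 998 and 1213 against 190, 257 and 315, without overlap (1.86 ± 0.30, 3.64-fold, adjusted p = 4.76e-05).

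The other 3 Rabs called higher, Rab1b, Rab2b and Rab28, differed less. Rab1b, which acts between ER and Golgi, ran from 1532 to 3884 around 2874 in olfactory and from 1057 to 2376 around 1326 in respiratory arrays (0.85 ± 0.23, adjusted p = 0.00774), while Rab1a gave -0.38 ± 0.16 (adjusted p = 0.0862). The 3 probe sets annotated to both Rab1 genes were not used. Averaging all probe sets of Rab1b removed its call. Rab2b, a Golgi Rab, was higher at 1551 to 2106 against 933 to 1130 (0.71 ± 0.13, adjusted p = 0.00018), and Rab2a gave 0.13 (adjusted p = 0.71). Rab28, linked to cilia, was higher at 4665 to 6253 against 3553 to 4399 (0.51 ± 0.13, adjusted p = 0.0065).

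Of the endosomal Rabs, Rab4a, Rab15 and Rab7a were called lower in male olfactory epithelium. Rab4a, of rapid recycling, had signals of 552, 813 and 1020 in olfactory and 2133, 2430 and 2935 in respiratory arrays, without overlap (-1.67 ± 0.24, 3.18-fold, adjusted p = 1.29e-05). Its paralog Rab4b lay above 0 and did not pass (0.57, adjusted p = 0.0824). Rab15, of recycling endosomes, gave 310, 685 and 894 against 1463, 1853 and 2010 (-1.60 ± 0.27, adjusted p = 7.25e-05). Rab7a, the Rab of late endosomes, overlapped between the tissues (791 to 3143 around 2490 against 1554 to 4820 around 4048) and was the weakest call (-0.92 ± 0.34, adjusted p = 0.0477). Rab32 and Rab38, Rabs of melanosomes and other lysosome-related organelles, were lower by like amounts (-1.15 ± 0.29 and -1.06 ± 0.20, adjusted p = 0.00416 and 0.000246). Both had olfactory groups wholly below the respiratory ones.

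The other 5 Rabs called lower lay between Rab19 (-0.88 ± 0.26) and Rab12 (-0.56 ± 0.14), with Rab29, Rab13 and Rab31 at -0.74, -0.70 and -0.65 (adjusted p from 0.00351 to 0.0363). The early endosome Rabs Rab5a, Rab5b and Rab5c gave 0.22, 0.15 and 0.05, and the recycling Rabs Rab11a, Rab11b and Rab25 gave -0.01, 0.44 and -0.37, without passing (adjusted p from 0.124 to 0.983). A second, dimmer probe set of Rab11a was called higher (0.64 ± 0.16, adjusted p = 0.00564).

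While the Rab11 GTPases themselves were not called, the family of Rab11 effectors was uneven. Rab11fip4, which also binds Arf GTPases, had signals of 1483, 1908 and 2255 in male olfactory and 272, 320 and 723 in male respiratory arrays, without overlap (2.33 ± 0.28, 5.03-fold, adjusted p = 1.19e-06). Male respiratory 1, at 723, stood above the other 5 at 272 to 352. Rab11fip5 gave 817, 1037 and 1556 against 332, 536 and 720 (1.10 ± 0.20, 2.15-fold, adjusted p = 0.000242). Rab11fip3 (0.62 ± 0.27, adjusted p = 0.0961), Rab11fip2 (0.38 ± 0.30, above background on 3 of 20 arrays) and Rab11fip1 (-0.04 ± 0.21) did not pass. The regulators with Rab3 in their symbols, Rab3gap1, Rab3gap2, Rab3ip and Rab3il1, did not pass (0.03, -0.10, 0.32 and -0.68). A dimmer probe set of Rab3ip was called higher (1.26 ± 0.22, adjusted p = 0.000114).

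Sec14l2, a lipid-binding Sec14-like protein also known as supernatant protein factor, had the largest difference of the 123 genes, with signals of 3254, 8082 and 10438 in male olfactory and 516, 753 and 1678 in male respiratory arrays (3.08 ± 0.33, 8.43-fold, adjusted p = 2.42e-07). Male olfactory 10, at 3254, was far below the other 5 at 7751 to 10438 and still above every respiratory array. Sec14l3 (0.71 ± 0.36, adjusted p = 0.165) and Sec14l1 (-0.29 ± 0.23, adjusted p = 0.394) did not pass. Sec14l3 ran from 6302 to 19534 in olfactory and from 7722 to 14297 in respiratory arrays.

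Respiratory samples differed in neuron marker signal, and several genes that were higher in olfactory epithelium differed with it. Female respiratory 7, whose neuron marker sum of 26112 was the highest of the 12 respiratory arrays, also had the highest respiratory signals of Rab3a (848), Rab6b (1109), Ap3b2 (423), Rab3b (396) and Sec14l2 (2608), while Rab11fip4 was highest on female respiratory 3 (919, marker sum 15676). Among male respiratory arrays, number 1 had the highest marker sum (12611) and the highest signals of Rab6b (705), Ap3b2 (336), Rab3b (386), Rab11fip4 (723) and Sec14l2 (1678), while Rab3a was highest on male respiratory 7 (669, marker sum 6722). Rab36 did not follow this order: it read 241 on female respiratory 7 and 273 on male respiratory 1, within the 190 to 315 of the male respiratory arrays. Rab3c followed it in part. Its signal was highest on male respiratory 1 among males (46.9), but among females on female respiratory 8 (94.6, marker sum 9658). Rab3c read 65.3 on female respiratory 7 and 14.8 on female respiratory 3. Among the 6 male olfactory arrays, whose marker sums span 66567 to 76976, Rab6b still ranged from 704 to 4862. These values are given as a description, and the part that neurons have in the differences was not tested.

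**Figure D4:**
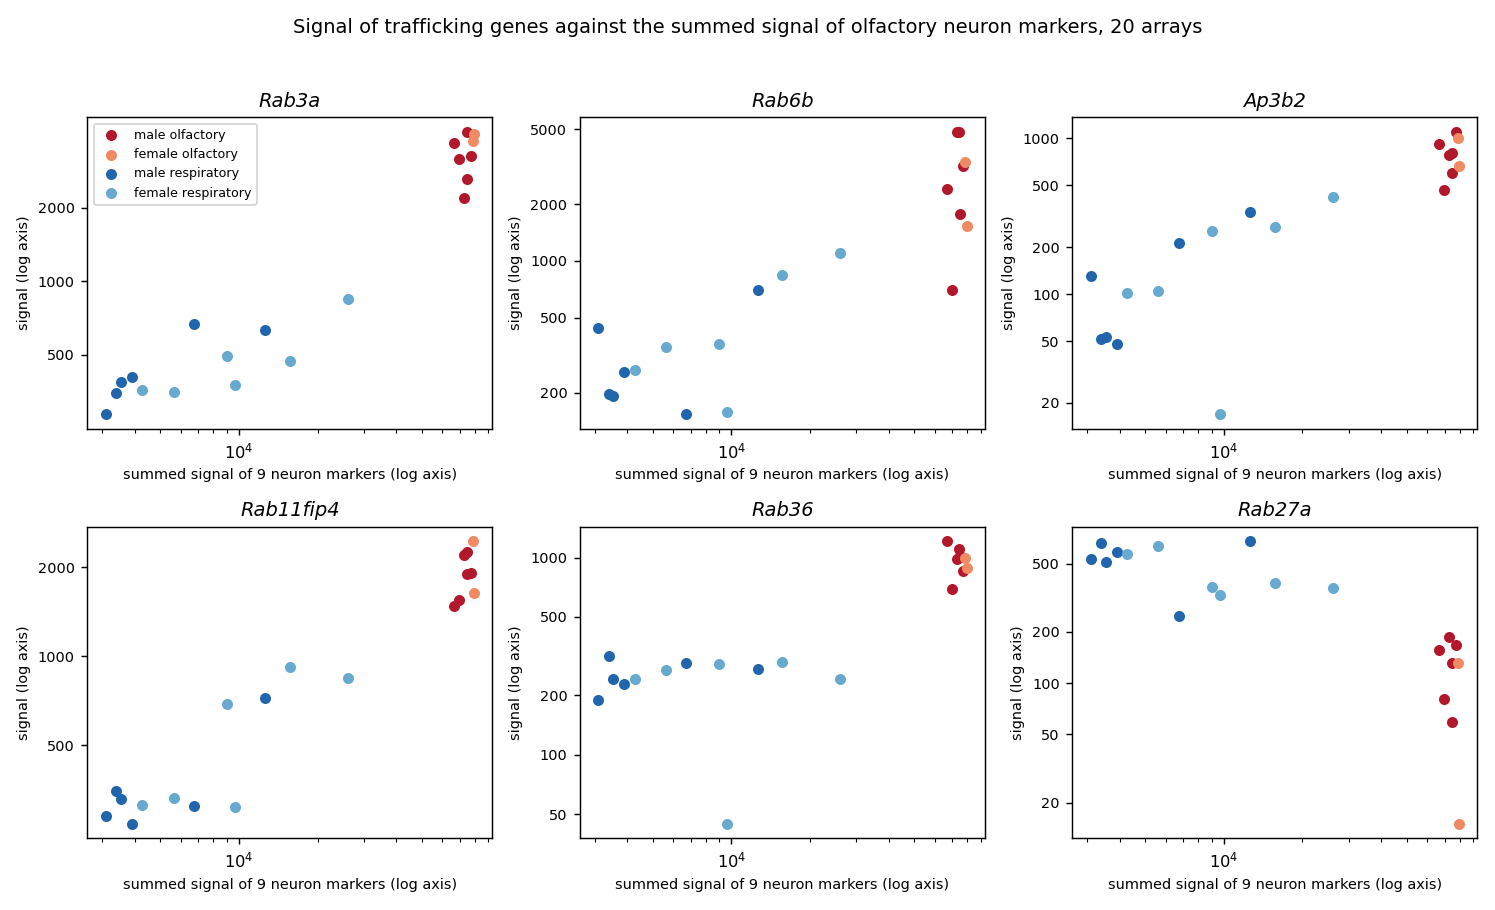
Signal of 6 trafficking genes against the summed signal of 9 olfactory neuron markers on 20 arrays, both on log axes, coloured by group. Among the respiratory arrays Rab6b, Ap3b2 and Rab11fip4 are highest on the 3 with the largest marker sums (12611, 15676 and 26112), female respiratory 8 is low for Ap3b2 (16.9), Rab36 lies at 190 to 315 on 11 of the 12 respiratory arrays and Rab27a lies lower on the olfactory arrays.

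In females, 18 of the 123 genes were called higher and 14 lower in olfactory than in respiratory epithelium (limma, 2 against 6 arrays), against 10.9% and 11.6% of all genes. All 41 genes called in males had the same sign in females, and 25 of them (61.0%) were also called there, where 97.7% and 57.1% of all genes called in males did so. Of the 32 genes called in females, 78.1% were called in males. Rab3a again had the smallest adjusted p, with signals of 3733 and 3985 in the 2 olfactory arrays against 352, 423 and 848 in respiratory ones (3.03 ± 0.33, adjusted p = 2.54e-06). Rab11fip5 was at 1663 and 2088 against 399, 450 and 670 (1.94 ± 0.29, adjusted p = 6.59e-05). Rab27a was at 15.0 and 130 against 326, 375 and 633 (-2.71 ± 0.47, adjusted p = 0.00035), with 1 of the 2 olfactory arrays above background.

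Sec16b was not above background on either female olfactory array (21.9 and 39.0 against 118, 285 and 426), so it was at least 4.25-fold lower there (adjusted p = 0.000392). Sec13 was at 1514 and 1665 against 2721, 3028 and 5165 (-1.03 ± 0.26, adjusted p = 0.00797). Arcn1 was the COPI gene that passed in females (-1.05 ± 0.35, adjusted p = 0.0371), and Copb2 gave -0.57 ± 0.27 (adjusted p = 0.154). Calls in females rest on 2 olfactory arrays: without female olfactory 6, 10 of the 32 were kept, and without female olfactory 8, 16. With the animal as a fixed block in the rats with both tissues, females had 10 genes higher and 2 lower, with 12 of the 32 kept.

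The 7 genes called in females but not in males were Arf3 (1.15 ± 0.33), Rab11fip3 (1.10 ± 0.38), Sec22c (0.84 ± 0.29), Rab40c (0.85 ± 0.26) and the early endosome Rab Rab21 (0.57 ± 0.18), all higher, and Rab8b, a Rab of transport to the cell surface (-1.44 ± 0.41), and Sec63 (-0.93 ± 0.30), both lower (adjusted p from 0.0159 to 0.0489). Their differences in males had the same sign, at 0.62, 0.62, 0.37, 0.45, 0.31, -0.73 and -0.40. The tests of the sex difference itself called 0 of the 123 genes: in respiratory epithelium (0.0141% of all genes called), in olfactory epithelium (0.0211%) and for the difference between the sexes in the tissue contrast (0%). At an unadjusted p under 0.05 these tests gave 2, 3 and 3 genes (1.63%, 2.44% and 2.44%), fewer than the 3.57%, 3.91% and 3.82% of all genes. In respiratory epithelium they were Ap3d1 (-0.34, female minus male) and Rab3il1 (-0.59), and in olfactory epithelium Rab11fip5 (0.76), Rab27a (-1.03) and Rab8b (-1.03). The 3 for the difference between contrasts were Rab11fip5 (0.84 ± 0.35), Rab15 (0.97 ± 0.46) and Sec24c (0.54 ± 0.26), each with an adjusted p of 0.924.

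**Figure D5:**
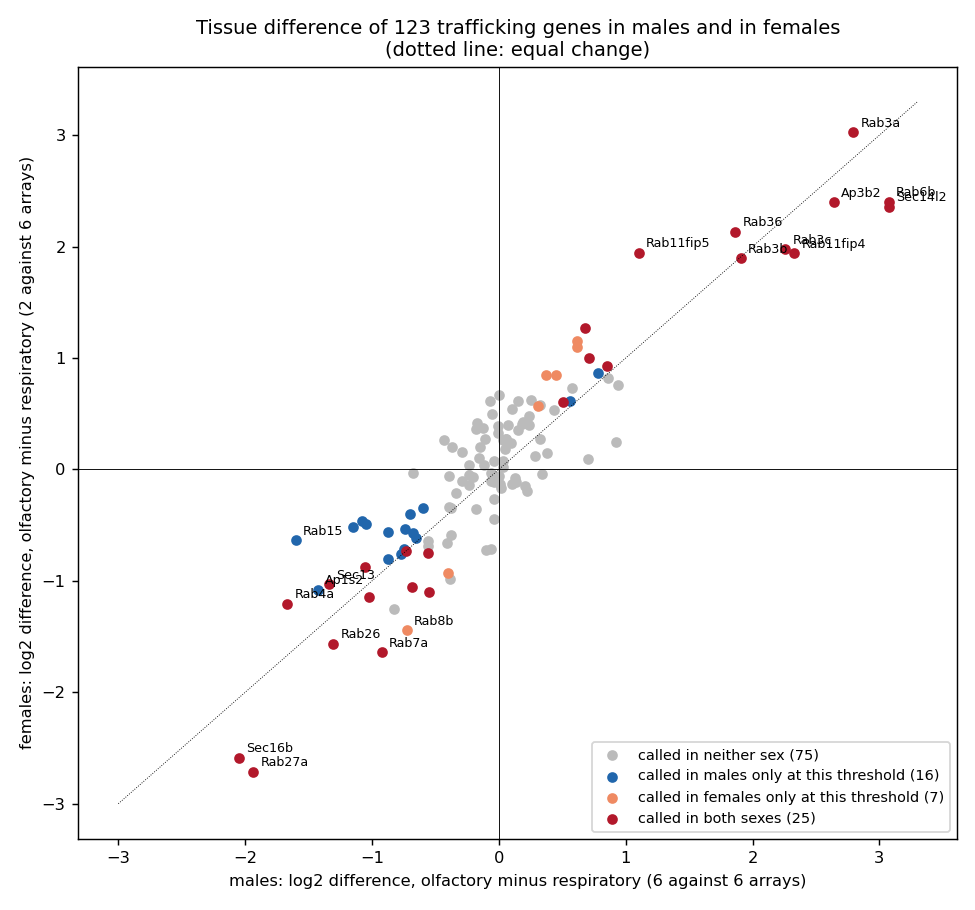
Log2 difference (olfactory minus respiratory) of the 123 genes in males (6 against 6 arrays) and in females (2 against 6 arrays), coloured by the sex or sexes in which they were called. The 25 genes called in both sexes (red) lie where both differences have the same sign, and Rab11fip5 (1.10 in males, 1.94 in females) lies above the line of equal change.

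Within groups the trafficking genes varied about as much as other genes of like signal. Their median SD on the log2 scale was 0.39 in male olfactory, 0.32 in male respiratory and 0.36 in female respiratory arrays, against 0.43, 0.35 and 0.38 for genes within the members' range of mean signal. The most variable were Rab6b and Rab37 in male olfactory (1.04 and 1.02), Ap3b2 in male and female respiratory (1.05 and 1.34) and Rab43 in female respiratory arrays (1.05). The least variable were Ap1g2 (0.11), Sec24d in male respiratory (0.08) and Rab21 in female respiratory arrays (0.04). Of the 41 genes called in males 16 had other probe sets, and all 21 of these had the same sign, 12 of them called. For the 39 uncalled genes with other probe sets, 36 of 55 such probe sets had the same sign.

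Of the 41 calls in males, 33 held with each of the 12 male arrays left out in turn. The exceptions were Rab27b, lost without any 1 of 9 arrays, Arcn1 and Ap1m2 (8 arrays each: male olfactory 4, 7 or 10 or male respiratory 1, 2, 3, 4 or 8), Rab7a (7), Arf6 and Rab13 (6 each, male respiratory 7 among them), Copg1 (male olfactory 4 or 10 or male respiratory 2 or 4) and Ap1s1 (male olfactory 7 or male respiratory 1 or 8). With RNA integrity as a covariate, on the arrays that have it, 10 of the 41 were kept against 37 on the same arrays without it. The 10 were the 9 named last here and Rab38. Of the 31 lost, 17 had a difference at least 0.8 times as large and 14 a smaller one. Over all probe sets the covariate left 1285 higher and 1062 lower, against 3170 and 4033 on the same arrays without it. Integrity and tissue go together in these samples, so their parts cannot be fully told apart. In males of 13 or 14 weeks alone (3 against 3 arrays) 20 of the 41 were kept, and 14 of the 21 lost had a difference at least as large, among them Copb2 (-0.90), Copg1 (-1.07) and Arcn1 (-1.03). In males of 11 weeks alone 33 were kept and 15 others called. Among these was Sec22c, grouped here with the COPII and ER exit genes, which was higher (0.53, adjusted p = 0.0284). With the animal as a fixed block 29 were kept, and Ap1m2, Ap1s1, Ap1s3, Arcn1, Copg1, Rab7a, Rab12, Rab19, Rab27b, Rab28, Rab31 and Sec23b were lost, with differences 0.71 to 1.04 times the size without the block. The 9 genes called under every setting tried were Sec14l2, Rab6b, Rab3a, Ap3b2, Rab11fip4, Rab3b and Rab36, all higher, and Sec16b and Sec13, both lower.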

How the data were processed

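Per the labels' protocols, RNA was isolated with Trizol, purified further with Qiagen reagents and treated with DNase. The authors deposited an intensity for each probe set on a linear scale, made with GCOS 1.0 per the submitters' processing notes, and the scaling, which the values show (the mean after trimming 2% at each end was 500.1 to 500.3 on every array), was kept. Leaving out 57 controls, 31042 of 31099 probe sets were tested, of which 20826 had 1 symbol, 436 several and 9780 none used here. Background on each array was set at percentile 95 over 27 bacterial controls (28.2 to 64.9), and 112 of the 123 genes were above it on all 20 arrays. The number of arrays limits the precision.

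limma 3.58.1 in R 4.3.3 fitted log2(intensity + 16), so differences of dim genes are understated, with a mean for each sex and tissue over all 20 arrays and an intensity trend, with two-sided p-values corrected across all probe sets after Benjamini-Hochberg. The method was tested on simulated data. The members, gene lists and tests were chosen with earlier results of these data known, and named list genes are the 3 of each list with the largest difference in males. The genes named are all COPI genes, up to 4 called genes per role and direction, relatives that differ in their call, and those called in females but not in males; other Rab GTPases and adaptor or Sec genes were added after their values were seen. The fit has no animal term: numbers pair the tissues of 7 rats, whose deviations from the group means correlated by -0.184 to 0.246 (consensus 0.039). Promoter windows are from RefSeq.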

Additional observations from a re-analysis of the deposited data

Results flagged for a closer look

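For each of the 123 genes and each of the 3 groups of 6 arrays, the array at either end was compared with the other 5. In 81 of these 369 pairs (22%) the gap to the nearest array exceeded Dixon's 95% limit, where chance gives about 1 in 20, and the same was true of 16.8% of the pairs over all genes. Of the 81, 40 were on male respiratory 7 and 31 on female respiratory 8.

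Male respiratory 7 was the lowest array of its group for the coat, Sec and Arf genes Arcn1 (1439.8 against 2324 to 2792), Copa (3203 against 4115 to 4556), Copg2 (767 against 1951 to 2229), Sec16a (1316 against 1552 to 1704), Sec62 (2087 against 3799.8 to 4686) and Sec63 (857 against 1853 to 2558). It was also lowest for the adaptor genes Ap1ar (705 against 1368 to 1851), Ap1g1 (399 against 781 to 968), Ap2b1 (1106 against 1911 to 2141) and Ap3b1 (531 against 888 to 1042). Among Rab genes and Rab regulators it was lowest for Rab10 (2355 against 3192 to 3586), Rab18 (1868 against 2797 to 3335), Rab27a (248 against 511 to 677), Rab2a (3062 against 5069.7 to 5630.3), Rab33b (572 against 939 to 1071), Rab3gap2 (262 against 395 to 489), Rab5a (1709.6 against 2212 to 2479), Rab6a (3063 against 4413 to 5464), Rab7a (1554 against 3753 to 4819.8) and Rab8b (564 against 1213 to 1516). Male respiratory 7 was the highest array of its group for the coat, Sec and Arf genes Arf3 (5561 against 2681 to 2902), Arf5 (4383 against 1621 to 1939), Cope (5761 against 2547 to 3071), Copz2 (952 against 455 to 542), Sec61a1 (6553 against 3002 to 3798), Sec61b (13743 against 6408 to 7433) and Sec61g (27812 against 9439 to 11623). It was also highest for the adaptor genes Ap1m1 (1029 against 612 to 709.6), Ap1m2 (3219 against 1223 to 1713), Ap2s1 (4459.7 against 1689 to 2307), Ap3s1 (3372 against 2585 to 2817) and Ap3s2 (1632 against 894 to 1036). Among Rab genes and Rab regulators it was highest for Rab11a (9047 against 5265 to 6049), Rab11b (4475 against 2136 to 2652), Rab13 (1492 against 586 to 705), Rab25 (4088 against 2143 to 2544), Rab40c (867 against 550.2 to 577), Rab4b (1071 against 408 to 488), Rab5c (1985 against 762 to 1090.4) and Rab5if (7626 against 3920.4 to 4721).

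Female respiratory 8 was the lowest array of its group for the coat, Sec and Arf genes Arf1 (7537 against 12271 to 14556), Sec14l1 (366 against 929.9 to 1433), Sec24c (931 against 1342 to 1454), Sec61a2 (297 against 518 to 668) and Sec63 (1481 against 1877 to 2129). It was also lowest for the adaptor genes Ap1g1 (373 against 799.5 to 1067), Ap1s1 (1039.5 against 1601 to 1724), Ap2b1 (849 against 1814 to 2450.0), Ap2m1 (2298 against 4573 to 5602), Ap3b1 (449 against 743 to 900.4) and Ap3m2 (73.7 against 314 to 436). Among Rab genes and Rab regulators it was lowest for Rab2a (3289 against 5416 to 6019.8), Rab36 (44.6 against 241 to 297), Rab3d (934 against 1925 to 2623), Rab4a (851 against 2036 to 2665), Rab5b (975 against 2008 to 2715), Rab7a (1881 against 3598 to 4249) and Rab8a (1023 against 1721 to 2049). Female respiratory 8 was the highest array of its group for the coat, Sec and Arf genes Sec11a (4031 against 2682 to 3105), Sec11c (10511 against 4253 to 5926), Sec61b (14876 against 5363 to 7576), Sec61g (40032 against 7924 to 11117) and Sec62 (7879 against 3502 to 3950.1). It was also highest for the adaptor genes Ap1s3 (1562 against 562 to 725), Ap3m1 (2789 against 1408 to 1772) and Ap3s1 (3340.4 against 2021 to 2409). Among Rab genes and Rab regulators it was highest for Rab11a (8815 against 4496 to 5724), Rab1a (18116 against 10839 to 13117), Rab20 (1098 against 548 to 705), Rab27b (525 against 304 to 363) and Rab5a (3819 against 2105 to 2314).

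The other 10 were spread over 7 arrays. Ap1s2 was high on male olfactory 2 (504 against 204 to 259.6) and Rab11fip4 was high on male respiratory 1 (723 against 272 to 352). Rab18 was low on male olfactory 2 (2954 against 3507 to 3883) and Rab22a was high on male respiratory 2 (687 against 554 to 599.6). Rab39a was high on female respiratory 7 (61.3 against 1.92 to 13.2) and Sec13 was high on female respiratory 9 (5165 against 2721 to 3159). Sec14l2 was low on male olfactory 10 (3254 against 7751 to 10438) and Sec14l3 was low on male olfactory 10 (6302 against 15727 to 19534). Sec14l3 was high on male respiratory 1 (14297 against 7722 to 9432) and Sec22a was low on female respiratory 3 (374 against 471 to 534).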

How the results depend on the processing

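No gene called in males or in females changed sign under any alternative. Male calls numbered 7 higher and 3 lower with RNA integrity as a covariate. They numbered 11 higher and 9 lower when males of 13 or 14 weeks alone were used, against 19 higher and 29 lower in males of 11 weeks alone. Over all 31042 probe sets the main fit called 3594 higher and 4230 lower in males. The covariate gave 1285 and 1062 there, males of 13 or 14 weeks 1524 and 1724, and males of 11 weeks 3800 and 3977. With the animal as a fixed replicate block in the paired rats, 29 of the 41 male calls were kept, and females had 10 higher and 2 lower; as a random replicate block all 41 male and 32 female calls were kept. Over all probe sets the fixed block called 2858 higher and 3025 lower in males, and 1200 and 1028 in females. In females RNA integrity as a covariate left 4 higher and 3 lower. Over all probe sets it left 581 and 552 in females, against 2371 and 3200 in the main fit. Without male respiratory 7 and female respiratory 8, females had 24 lower, and males 22 higher and 31 lower. Over all probe sets this gave 5236 lower in females, and 4273 higher and 5638 lower in males. Leaving out single arrays gave 13 to 18 higher in males apart from 20 without male respiratory 7, and 21 to 27 lower; in females it gave 7 to 20 higher and 2 to 20 lower. Quantile normalization moved the median of all probe sets in females from -0.11 to 0.02, and 26 of the 32 female calls were kept. Pseudocounts of 1 and 64 and a background filter kept all 41 male calls. Averaging all probe sets of a gene kept 37 of them and lost Arcn1, Copg1, Rab1b and Rab7a. The causes were not tested. Signal near background limits Rab39a, Rab11fip2, Rab3c, Rab9b and Rab43.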

Other observations

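Of 31 families of paralogs with at least 2 measured members, 3 had members called in both directions in males (Rab3, the AP-1 sigma and the AP-3 beta subunits). None of these 3 did so in females, or in males with RNA integrity as a covariate. Rab3d, Ap3b1, Ap1s1, Ap1s2 and Ap1s3 were not called in either case. Another 4 had 2 or more members called in 1 direction, which are the Arf GTPases, Rab27a and Rab27b, Rab32 and Rab38, and the Rab11 effectors Rab11fip4 and Rab11fip5. In 11 families 1 member was called, and in 13 no member was.

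Rab9b and Rab43 gave 0.92 and 0.94 in males without passing (adjusted p = 0.0865 and 0.094), and were above background on 13 and 14 of the 20 arrays.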
